A study of Branchiostoma belcheri with 2 samples.

Results

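The probes described here were those on a 1-colour microRNA (miRNA) array whose name carried the number miR-10, miR-196, miR-615 or miR-993 after the species prefix, with any letter or arm suffix. This rule took 27 of 1686 miRNA probes, of which 17 were named miR-10 and 10 were named miR-196. No probe was named miR-615 or miR-993. By species, 1 probe was designed for *Branchiostoma belcheri* (bbe), 3 for the Florida amphioxus *Branchiostoma floridae* (bfl), 10 for zebrafish (dre), 5 for a clawed frog (xtr), 5 for sea lamprey (pma), 2 for a sea squirt (cin) and 1 for a sea urchin (spu). All probes were hybridised with gill RNA of adult *B. belcheri*, an amphioxus (an invertebrate chordate), whatever species the probe was designed for.

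Each group held 1 array. The control animals were injected with PBS, and the label of their array gives no time. The LPS animals were injected in the body cavity with 15 µl of lipopolysaccharide (LPS, a component of the envelope of Gram-negative bacteria) at 1 mg/ml in PBS, and their array is labelled 12 h. The labels call the animals adults and do not say how many went into an array. With 1 array per group no test between groups was possible, no p-value is given, and treatment and array cannot be told apart. In whole tissue, fewer cells of a type and less RNA per cell cannot be told apart either.

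miR-10 genes lie inside the Hox gene clusters of many bilaterian animals, and miR-196 genes lie in the Hox clusters of vertebrates and tunicates. Hox genes encode the transcription factors that set position along the body axis, and miR-10 and miR-196 are known in vertebrates to bind the mRNAs of some Hox genes. A miRNA recognises its targets mainly through its seed, bases 2 to 8 from the 5′ end. Probes on an array, by contrast, bind along the whole length of the miRNA, so bases outside the seed bear on which RNA a probe can hold.

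The 12 miR-10 probes named for the 5p arm or with no arm suffix all carry the seed ACCCUGU, and they differ from each other only outside it. Target sequences from the scanner files are shown 5′ to 3′ with the seed in capitals, first for the amphioxus paralogues and then for other species, because the values below are ordered by these letters.
bfl-miR-10b: aACCCUGUggauccgaucuugugu
bfl-miR-10c: uACCCUGUagauccggacuugu
dre-miR-10a-5p: uACCCUGUagauccgaauuugu
xtr-miR-10a: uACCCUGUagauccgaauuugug
spu-miR-10: aACCCUGUagauccgaauuugug
dre-miR-10b: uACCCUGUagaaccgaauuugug
xtr-miR-10b: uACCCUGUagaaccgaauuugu
dre-miR-10d-5p: uACCCUGUagaaccgaaugugug
dre-miR-10c: uACCCUGUagauccggauuugu
xtr-miR-10c: cACCCUGUagaaucgaauuugu
pma-miR-10a: uACCCUGUggacucgaauuugu
pma-miR-10b-5p: uACCCUGUagguacgaccuugc

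Substitutions are written against dre-miR-10a-5p, with its base first, the position counted from 1 at the 5′ end, and then the base of the other probe. xtr-miR-10a has no substitution and 1 extra base at its 3′ end, and spu-miR-10 has U1A and the same extra base. dre-miR-10b and xtr-miR-10b carry U12A, with 1 extra base in dre-miR-10b only. dre-miR-10d-5p carries U12A and U19G and 1 extra base. dre-miR-10c carries A16G, and bfl-miR-10c carries A16G and U18C. bfl-miR-10b is the most distant of the detected probes with this seed, with U1A, A9G, A17U and U18C and 2 extra bases. A probe for the 5p arm of amphioxus miR-10a was not analysed here, and the closest amphioxus probe to dre-miR-10a-5p is bfl-miR-10c, at 2 edits. Which amphioxus RNA each probe of another species held is not known from the files. The paralogue probes bfl-miR-10b and bfl-miR-10c are 6 edits apart.

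Spot intensities were compared on 2 repeat spots per probe and array. Detection required a mean intensity over the 95th percentile of an array's empty spots, namely 121.9 (control) and 143.5 (LPS). The control array detected 648 probes and the LPS array 339. Of the members, 13 of 27 were detected on the control array and 8 of those 13 also on the LPS array, and no member was detected on the LPS array only. Log2 differences are LPS minus control after background correction and quantile normalization, and the value after ± is the SE over the repeat spots, a technical error that says nothing of differences between animals. A probe was called lower or higher when it was detected, differed at least 2-fold and had repeat spots that did not overlap between the arrays after normalization. Pooled over detected probes, repeat spots varied by an SD of 0.21 log2 units (control array) and 0.72 (LPS array). No member came near the upper limit of the scan.

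Among the amphioxus paralogues, signal on the miR-10c probe was lower on the LPS array, and signal on the miR-10b probe was not. bfl-miR-10c gave 4776 and 3786 on the control array, against 287 and 182 on the LPS array. The control spots lay far above the LPS spots, which were dim but above the detection threshold. The log2 difference was -3.03 ± 0.51, or 8.18-fold lower, and it was -3.04 in the authors' deposited table, where the probe stood at 1575 on the control array, against 177 on the LPS array. Under 10 other treatments of the data bfl-miR-10c was called lower in all 10, with log2 differences from -4.24 to -2.51. It was 1 of 8 amphioxus probes called lower out of 204 detected (3.92%).

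bfl-miR-10b gave 1327 and 1326 on the control array, against 1568 and 1093 on the LPS array. As scanned, the LPS spots lay on either side of the control spots, and the groups overlapped. After quantile normalization the probe was called higher, at 1.32 ± 0.33 (2.49-fold), against 16.7% of detected amphioxus probes called higher. The call depended on scaling: the log2 difference was 1.13 with median scaling and 1.86 in the deposited table, but 0.77 with loess, 0.46 with scaling on calibration spots and 0.01 with no normalization between the arrays. The last 3 values did not pass.

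The gap between paralogues does not change with a constant scaling of an array. The log2 difference of bfl-miR-10c minus that of bfl-miR-10b was -4.35 ± 0.61, and ranged from -4.90 to -3.69 under the 10 other treatments. Among these, median scaling, calibration-spot scaling and no normalization could not differ from each other and share the value -4.25. The SE covers repeat spots only. Both probes carry the same seed, so the 2 amphioxus sequences with 1 seed gave different log2 differences between these 2 arrays. Probes of other species 1 edit apart could differ too, with -1.53 for dre-miR-10b and -3.63 for xtr-miR-10b. spu-miR-10 stood at -1.45 and xtr-miR-10a at 0.16, whereas dre-miR-10a-5p was nearer to the latter, at 0.40. bfl-miR-10b is 3 edits from the bright miR-100 probe bfl-miR-100-5p, fewer than its 6 from bfl-miR-10c. Both were designed for *B. floridae*, and which RNA of *B. belcheri* each held is not known.

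**Figure D1:**
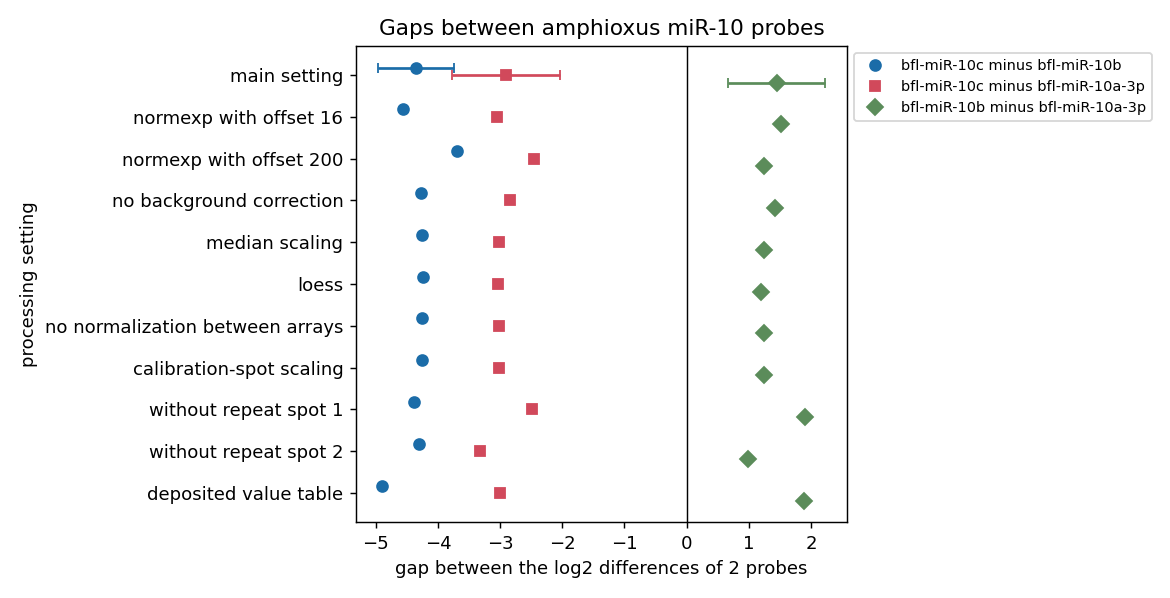
Gaps between the log2 differences (LPS minus control) of pairs of amphioxus miR-10 probes on the horizontal axis, for each processing setting on the vertical axis; bars at the main setting are SEs over repeat spots. The gap between bfl-miR-10c and bfl-miR-10b lies left of -3 in each setting.

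The third detected amphioxus probe, bfl-miR-10a-3p, is for the opposite arm of the hairpin. Its sequence is shown with that of the *B. belcheri* member and the zebrafish miR-10a-3p probe, which shares its bases 2 to 8.
bfl-miR-10a-3p: cAAAUUCGuuucugcagguau
dre-miR-10a-3p: cAAAUUCGugucuuggggaaua
bbe-miR-10b-3p: cAAGGUGGgauugacagguuca
bfl-miR-10a-3p gave 615.2 and 705.5 on the control array, against 377.7 and 196.4 on the LPS array. All LPS spots were below the control spots as scanned, but after normalization the spots overlapped. The normalized LPS spots, 9.27 and 7.87 on the log2 scale and 1.40 apart, lay on either side of the control spots at 8.62 and 8.77. The log2 difference was -0.13 ± 0.70 and did not pass. It ranged from -1.23 with no normalization, where it was called lower, to 0.65 without the second repeat spot. Relative to it, bfl-miR-10c stood at -2.90 ± 0.87 and bfl-miR-10b at 1.45 ± 0.78. The only member designed for the studied species, bbe-miR-10b-3p, was detected on neither array (113 and 111 under control, 96.5 and 117 under LPS). dre-miR-10a-3p, 6 edits from bfl-miR-10a-3p, was likewise not detected, with spots between 98.3 and 103. In all, 1 of the 5 probes for the 3p arm was detected.

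Probes of other species with the miR-10 seed are described by substitution. This order was chosen with the values known, and it does not separate the calls: spu-miR-10 was called lower without U12A or A16G, and xtr-miR-10c did not pass with U12A. Of the 10 probes 9 were detected, and 5 of the 9 were called lower and 0 higher. Among all detected probes of other species 13.3% were called lower. Of the 9, 5 were detected on both arrays, and of these dre-miR-10b, dre-miR-10c and spu-miR-10 were called lower. Among all probes detected on both arrays 13.9% were called lower. The rest of the 9 passed detection through the control array alone, so these counts are a description. The 9 detected probes are 1 to 5 edits apart and may hold the same amphioxus RNA, which was not tested. They are not taken as 9 separate measurements. For 8 of them the closest amphioxus probe is bfl-miR-10c, at 1 to 5 edits.

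The zebrafish and frog miR-10a probes, which are identical but for 1 base at the 3′ end, did not pass. dre-miR-10a-5p gave 8744 and 9010 on the control array, against 5618 and 4225 on the LPS array. xtr-miR-10a gave 9965 and 9709 on the control array, against 5053 and 4409 on the LPS array. In both, the LPS spots were below the control spots as scanned, and after normalization the log2 differences were 0.40 ± 0.19 and 0.16 ± 0.10. Their sign followed the scaling, with 0.67 and 0.51 in the deposited table and -0.86 and -1.06 with no normalization, where xtr-miR-10a was called lower. spu-miR-10 differs from xtr-miR-10a by U1A alone. It gave 30679 and 27284 on the control array, against 5985 and 5873 on the LPS array, without overlap. It was 2.73-fold lower (-1.45 ± 0.08) and was called lower in all 10 other treatments, from -2.29 to -1.06.

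The 3 brighter probes with U12A were all called lower. dre-miR-10b gave 7607 and 8562 on the control array, against 1063 and 1023 on the LPS array, and was 2.89-fold lower (-1.53 ± 0.10). xtr-miR-10b, which lacks the last base of dre-miR-10b, gave 2154 and 2041 on the control array, against 108 and 126 on the LPS array. It was not detected on the LPS array. Its log2 difference was -3.63 ± 0.16, and in the main setting (quantile normalization, offset of 50) it was at least 9.67-fold lower. For a probe detected on 1 array, this bound sets its mean normalized signal there against the higher of its own signal on the other array and the lowest signal among detected probes of that array. The bound holds for the main setting only. dre-miR-10d-5p gave 2367 and 1861 on the control array, against 126 and 136 on the LPS array, where it was not detected. In the main setting it was at least 9.60-fold lower. The control and LPS spots of these 3 probes did not overlap. All 3 were called lower in each of the 10 other treatments, with the highest log2 difference at -1.42 for dre-miR-10b, -2.53 for xtr-miR-10b and -2.41 for dre-miR-10d-5p. The other probe with U12A, xtr-miR-10c, also carries U1C and C13U. It was barely detected on the control array (132 and 124) and not on the LPS array (82.3 and 97.3), and its -0.38 ± 0.13 did not pass and turned above 0 with median scaling (0.95) and calibration spots (0.27).

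The 2 probes with A16G were called lower, bfl-miR-10c as above and dre-miR-10c. dre-miR-10c, 1 edit from bfl-miR-10c, gave 6666 and 6058 on the control array, against 858 and 724 on the LPS array. Its spots did not overlap, and it was 2.90-fold lower (-1.54 ± 0.17), with -1.80 in the deposited table.

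The lamprey probes carry several substitutions near the middle. pma-miR-10a (A9G, U12C and C13U) gave 134 and 126 on the control array, just above the threshold, and 87.2 and 106 on the LPS array, below it. Its log2 difference of -0.29 ± 0.15 did not pass, and it turned above 0 with median scaling (1.03, called higher) and calibration spots (0.35). pma-miR-10b-5p, with 5 substitutions, was detected on neither array.

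**Figure D2:**
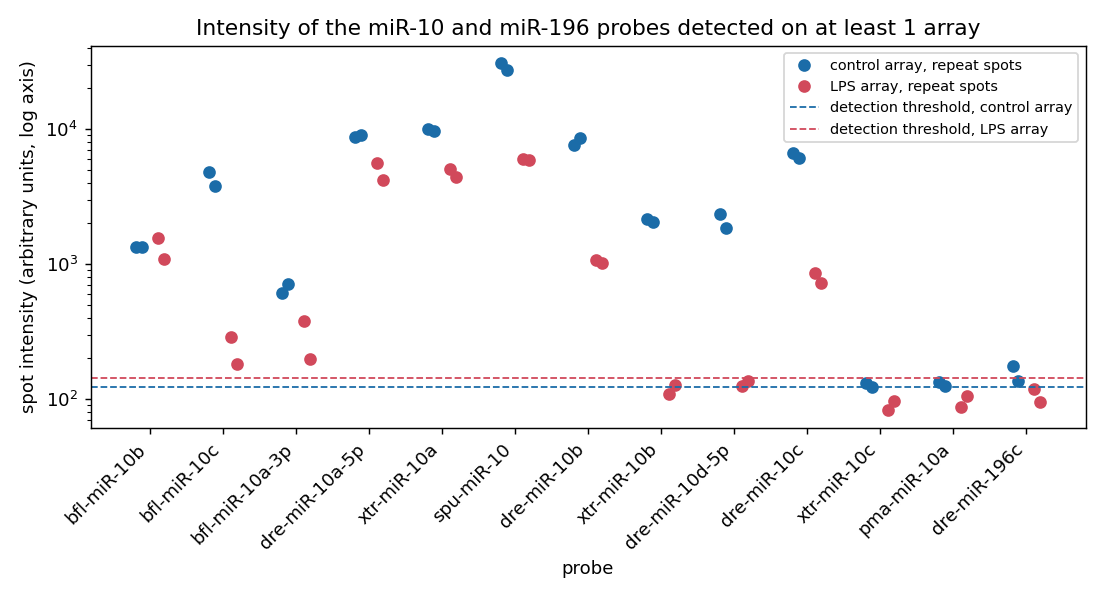
Spot intensity (log axis, arbitrary units) of the 13 detected members, with both repeat spots on the control array in blue and on the LPS array in red; dashed lines are the detection thresholds of 121.9 and 143.5. Control and LPS spots overlap in bfl-miR-10b. In xtr-miR-10b, dre-miR-10d-5p, xtr-miR-10c, pma-miR-10a and dre-miR-196c the LPS spots lie under the threshold of the LPS array.

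Over all 13 detected members, 6 were called lower, 1 higher and 6 did not pass. Among all 684 detected probes, 10.5% were called lower and 10.5% higher. The median log2 difference of the members was -0.39, against -0.10 for all detected probes. Since 5 of the 13 passed the detection filter through the control array alone, where they are brighter, these counts are a description. Of the 8 members detected on both arrays 4 were called lower and 1 higher, against 13.9% of the 303 probes detected on both called lower and 19.5% called higher. The 6 called lower were bfl-miR-10c, spu-miR-10, dre-miR-10b, dre-miR-10c, dre-miR-10d-5p and xtr-miR-10b. Each of them was called lower in all 10 other treatments.

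**Figure D3:**
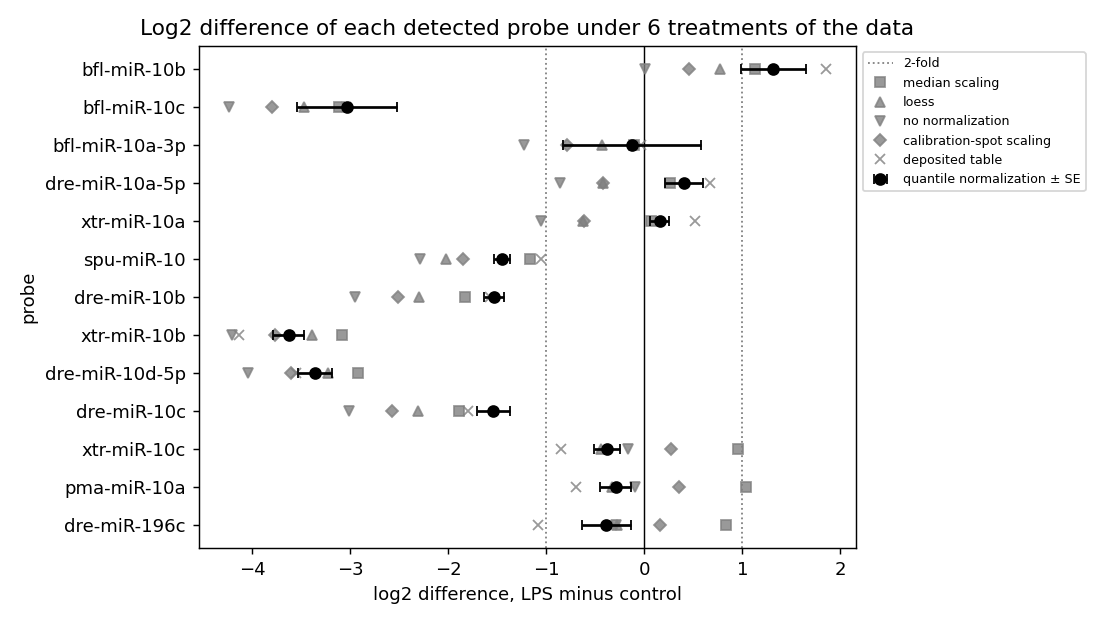
Log2 difference (LPS minus control) of each of the 13 detected members under 6 treatments of the data; black points with bars are the quantile-normalized value ± SE over repeat spots, grey symbols are other treatments, and dotted lines mark 2-fold. The 6 probes called lower stay left of -1 in all treatments shown, whereas bfl-miR-10b runs from 0.01 to 1.86.

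The maker's calibration spots include probes with mismatches, and these also gave less signal on the LPS array. In 23 pairs usable for this, the mismatched spot gave a median of 10.3% of the signal of its perfectly matched partner on the control array, against 1.01% on the LPS array, and its share fell in 23 of 23. Pairs were kept where the mismatched spot passed detection on the control array whatever it gave on the LPS array, a choice that favours pairs lower on the latter. The part of this in the differences between miR-10 probes was not tested.

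For miR-196, 1 of 10 probes was detected. The probe was dre-miR-196c, and its sequence is shown with that of dre-miR-196a, which it differs from at 1 base, and with dre-let-7a, since let-7 probes carry similar letters at the 5′ end.
dre-miR-196c: uAGGUAGUuugauguuguuggg
dre-miR-196a: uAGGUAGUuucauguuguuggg
dre-let-7a: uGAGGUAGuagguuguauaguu
dre-miR-196c gave 177 and 137 on the control array, against 118 and 94.8 on the LPS array. It was above the threshold on the control array only, and its log2 difference of -0.39 ± 0.25 did not pass, although it was past 2-fold in the deposited table (-1.08). Its sign turned after median scaling (0.84) and after scaling on calibration spots (0.16). dre-miR-196a gave 101 and 115 on the control array, against 94.4 and 104 on the LPS array and was not detected. The sea squirt probes cin-miR-196-5p and cin-miR-196-3p were not detected either, with spots between 80.8 and 110.5. The other frog, zebrafish and lamprey miR-196 probes were below the threshold on both arrays. A decrease in these probes was not detectable at this signal over background.

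miR-100, a relative of miR-10 with the seed ACCCGUA, is encoded near let-7 and miR-125 in many animals. Its amphioxus 5p probe is the closest probe outside the miR-10 family to bfl-miR-10b and to spu-miR-10, at 3 edits from each, and lies 5 edits from bfl-miR-10c.
bfl-miR-100-5p: aACCCGUAgauccgaacuugugu
bfl-miR-100-5p gave 49496 and 52165 on the control array, against 52265 and 51576 on the LPS array. These spots overlapped, and the log2 difference of -0.28 ± 0.04 did not pass and was above 0 in the deposited table (1.27). bfl-miR-100-3p stood at 0.49 ± 0.34 and did not pass. Counts in the lists that follow are to be read against 10.5% of all detected probes called lower and 10.5% called higher. For amphioxus probes these shares were 3.92% and 16.7%. The median log2 difference was 0.18 over all detected amphioxus probes, against -0.10 over all detected probes. Over the 5 probes named miR-99 or miR-100, all detected, 1 was called lower and 0 higher. That probe, pma-miR-100c, gave 294 and 248 on the control array and was below the threshold on the LPS array (106 and 111). In the main setting it was at least 1.46-fold lower. The list's median of -0.28 turned above 0 with median scaling (0.37) and in the deposited table (0.65). Probes of let-7 and miR-98 gave 16 lower and 3 higher of 33 detected, of which 19 were detected on the LPS array, so the rest passed through the control array alone. Their median was -0.88, and 0.19 with median scaling. The 4 amphioxus probes among them gave 0 lower and 1 higher, with a median of 0.89. Probes of miR-125 gave 1 lower and 1 higher of 6. Their median of -0.49 changed sign in the deposited table (0.72), after median scaling (0.88) and after scaling on calibration spots (0.20), and the median of the 2 amphioxus ones was 0.82.

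The gill label was set beside miRNA families known from other animals to mark cell types. Of 27 probes for miR-34 and miR-449, known from vertebrate ciliated cells, 19 were detected, and of 23 probes for the epithelial miR-200 group and its relatives 18 were. Probes for muscle families gave 21 detected of 35, for neuronal families 12 of 22 and for vertebrate blood families 2 of 11. Over all 1686 probes 684 were detected on at least 1 array. On the LPS array 11 ciliated, 13 epithelial, 6 muscle, 8 neuronal and 1 blood probe were detected, against 339 of all probes. Of the amphioxus probes, 10 of 11 for ciliated, 1 of 3 for muscle and 2 of 3 for neuronal families were detected, and the blood list held none. Over all amphioxus probes 204 of 260 were detected. The called counts in these lists, lower and higher, were 1 and 5 for ciliated, 5 and 1 for epithelial, 3 and 0 for muscle, 2 and 1 for neuronal and 0 and 1 for blood families, beside the same 10.5% of all detected probes in each direction. These counts followed the scaling. With no normalization they were 2 and 0 for ciliated and 11 and 0 for epithelial families, where 18.7% of all detected probes were called lower. With median scaling they were 2 and 9 for ciliated, 4 and 2 for epithelial and 1 and 11 for muscle families, where 314 of all 684 detected probes were called higher. The 6 amphioxus probes of the epithelial list, all detected, gave 0 lower and 1 higher (median 0.02), against a median of -0.47 over the 18 detected of all species. All detected amphioxus probes likewise had a higher median (0.18) than all detected probes (-0.10). The part of these families in the miR-10 differences was not tested.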

How the data were processed

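Gill RNA was measured on 1 control and 1 LPS array with a Cy3 label, and groups were taken from the agent in the labels. Per the labels' protocols, RNA was tailed with poly(A) before a Cy3 tag was joined to it. Per the file headers, the authors deposited the median pixel intensity of each spot on a linear scale, and no background column is present. The sources used here name no scanner or software. A table the authors deposited holds 1 processed intensity per probe (column medians of 6.88 for control and 3.42 for LPS), and its background, scaling and centring steps are not known here. It was used as an alternative, as log2 after adding 16.

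Background correction used normexp (limma 3.58.1, R 4.3.3) with an offset of 50 over all 3968 spots, and values were taken to log2, quantile-normalized over 3372 miRNA spots and averaged over 2 repeat spots per probe. The calls were tested on simulated data. How they hold at the repeat-spot SD of the LPS array, 0.72 log2 units, was not tested. On the LPS array 16 spots lay above 65535, none of them a member. With 1 array per group, the number of arrays limits the precision. Edit distances were computed from the target sequences in the files, on both strands. The 10 other treatments were offsets of 16 and 200, uncorrected intensities, median scaling, loess (span 0.4), no normalization, calibration spots, each repeat spot left out, and the deposited table. With a repeat spot left out and in the deposited table, a call rests on detection and fold, without a rule on overlap of spots. Other detection filters and folds were also tried. Members and lists were chosen with earlier results of these data known. Every member was accounted for, and each detected member was named with its values. No likeness of pattern between probes was ranked, since there are only 2 arrays.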

Additional observations from a re-analysis of the deposited data

How the results depend on the processing

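The count of members called lower was 6 with quantile normalization and stayed between 4 and 8 under the other filters and treatments, except for 3 at a threshold of 4-fold. The count called higher was 1, but 2 with median scaling and 0 with loess, no normalization, calibration spots or a threshold of 4-fold. The median log2 difference of detected members was -0.39 and below 0 in each alternative run. It was -0.63 and -0.16 with normexp offsets of 16 and 200, -0.11 with median scaling, -0.62 with loess, -1.23 with no normalization, -0.79 with calibration spots and -1.06 in the deposited table. It was -0.92 with detection at the 99th percentile of empty spots, -0.79 over members detected on both arrays and -0.13 with no filter, which adds probes at background. Relative to all detected probes it lay between -1.06 and -0.12. The settings with median scaling, with calibration spots and without normalization are separated by a constant only. They share 1 relative median and the same gaps between probes. All detected probes had medians of 0.94 with median scaling and 0.26 with calibration spots. The calls over all probes were 314 (higher) and 57 (lower) after median scaling, 36 and 78 with loess, 25 and 128 with no normalization, 68 and 84 with calibration spots, and 134 and 177 in the deposited table, against 72 and 72. The gap between bfl-miR-10c and bfl-miR-10b was -3.69 with an offset of 200, and within its SE of the main value in the other 9 treatments. The cause of these shifts was not tested. Of 130 values for single members under other treatments, 57 moved by less than the SE over repeat spots and 73 by more. No paired analysis was possible because each group holds 1 array. Signal over background limits the dim probes: the 10 miR-196 probes, the 3p arms other than bfl-miR-10a-3p, and pma-miR-10a and xtr-miR-10c lie near the level of empty spots.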
